A study of Homo sapiens with 24 samples.

Results

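TC71 is an established Ewing sarcoma cell line, and this account describes what happened to its RNA after exposure to pladienolide B (PlaB). The 6 TC71 arrays were taken out of 24 arrays by their cell line and treatment labels. In 3 of them the cells had received 5 nM PlaB for 24 h, and in the other 3 they had received the vehicle, 0.1% DMSO, for 24 h. The sample descriptions call the controls vehicle, while the treatment protocol speaks of untreated cells. The remaining 18 arrays hold the same pair of treatments, with 3 arrays each, in the Ewing sarcoma lines SKNMC, TC32 and RDES. They are used here to share the estimate of spread and to ask where TC71 responded differently. All lines were grown in the same serum-supplemented medium. The labels do not say whether the 3 arrays of a group come from separate cultures, so p-values measure the spread between samples that may be technical replicates.

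PlaB is a macrolide that binds the SF3b complex, the part of the U2 snRNP that holds the branch point of an intron at the start of spliceosome assembly. When SF3b is occupied by such a compound, introns can be kept or exons skipped, and an array probe reads the RNA at its own short target only. Ewing sarcoma arises in bone or soft tissue and usually carries a fusion of EWSR1 with FLI1, whose product is an aberrant transcription factor that switches some genes on and others off. The amplification kit named in the labels primes on poly(A) tails. Box C/D and H/ACA small nucleolar RNAs (snoRNAs), U-type small nuclear RNAs and most replication-dependent histone mRNAs have no such tail in their mature form. Whether the probes for these classes read the mature RNA or a longer tailed precursor was not tested.

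Levels are log2 normalized intensities, the brightest tested probe stands for each gene, and differences are PlaB minus vehicle on that log2 scale with the standard error (SE) of the limma fit, over 3 arrays in each group. A gene is called when limma's Benjamini-Hochberg adjusted p is under 0.05. The number of probes detected at p under 0.05 was 18736, 16912 and 17618 in the vehicle arrays and 15858, 16426 and 16997 in the PlaB arrays. The groups overlapped in 1 pair of arrays, and the difference of -1328 gave an exact two-sided permutation p of 0.2, where the smallest value that 3 against 3 arrays can give is 0.1. Without vehicle replicate 1 the difference was -838. Pearson's r between arrays ran from 0.992 to 0.993 within a group and from 0.949 to 0.953 between treatments, over all tested probes. Of the 17557 tested probes, 7648 (43.6%) were called, 3754 of them up (21.4%) and 3894 down (22.2%). Of the 10882 tested genes, 5229 (48.1%) were called, with 2487 up (22.9%) and 2742 down (25.2%). A difference of 2-fold or more was found in 307 genes called up (2.82%) and 501 called down (4.60%). The arrays of the 2 treatments did not overlap in 56.5% of the tested genes. The median difference over all tested genes was -0.02. These shares are the background for every count of genes given here.

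**Figure D1:**
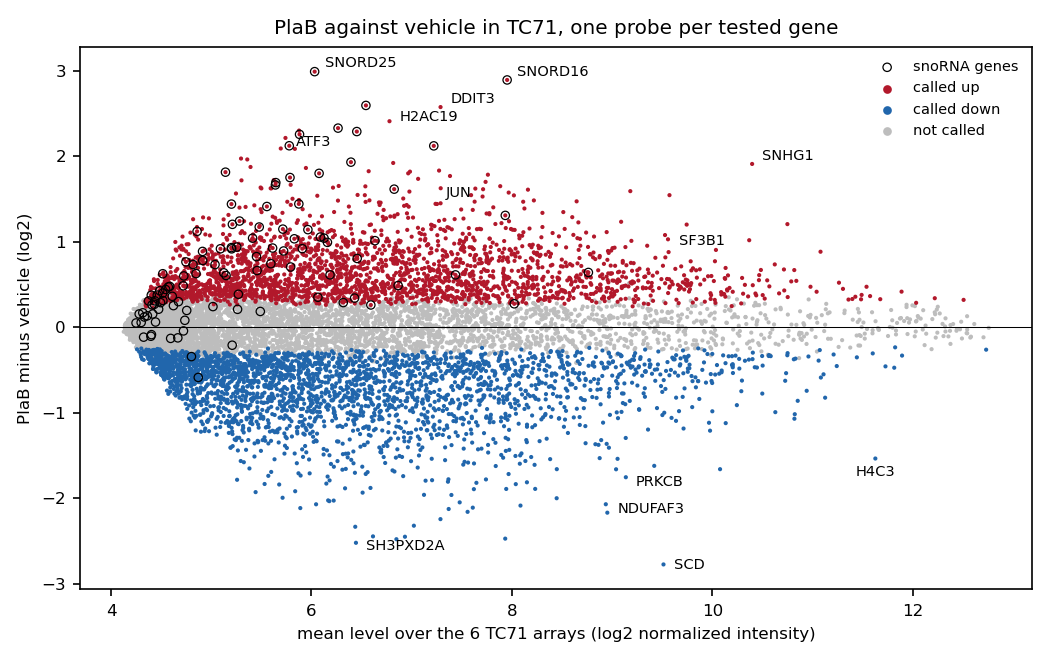
Difference between PlaB and vehicle (log2) against the mean level over the 6 TC71 arrays (log2 normalized intensity), 1 point for each of the 10882 tested genes, coloured by call, with snoRNA genes ringed. The ringed points lie mostly above 0, from SNORD48 at -0.59 to SNORD25 at 2.99, and SCD is the lowest point at -2.78.

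The largest rises were in small nucleolar RNAs, in a pair of stress transcription factors and in histone H2A genes. SNORD25, a box C/D snoRNA of chromosome 11, was at 4.53, 4.50 and 4.57 with vehicle and at 7.37, 7.52 and 7.69 with PlaB. SNORD16, a box C/D snoRNA of chromosome 15, was at 6.45, 6.40 and 6.67 with vehicle and at 9.42, 9.33 and 9.44 with PlaB. For both snoRNAs each PlaB array stood above each vehicle array by well over the spread within a group. The differences were 2.99 ± 0.13 (limma adjusted p = 6e-17) for SNORD25, a 7.95-fold rise, and 2.89 ± 0.13 (adjusted p = 5.7e-17) for SNORD16, a 7.44-fold rise. SNORD13, SNORA3B, SNORA7B, SNORD55, SNORD69, SNORA18 and SNORD100 made up the other snoRNAs among the 15 largest rises, with differences from 1.93 to 2.60. The remaining genes of that group were DDIT3, ATF3, H2AC19, H2AC18, OVGP1 (2.30), which encodes an oviduct glycoprotein, and PRR4 (2.09), which encodes a proline-rich secreted protein. No vehicle array overlapped a PlaB array in any of these 15 genes, as their choice required.

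**Figure D2:**
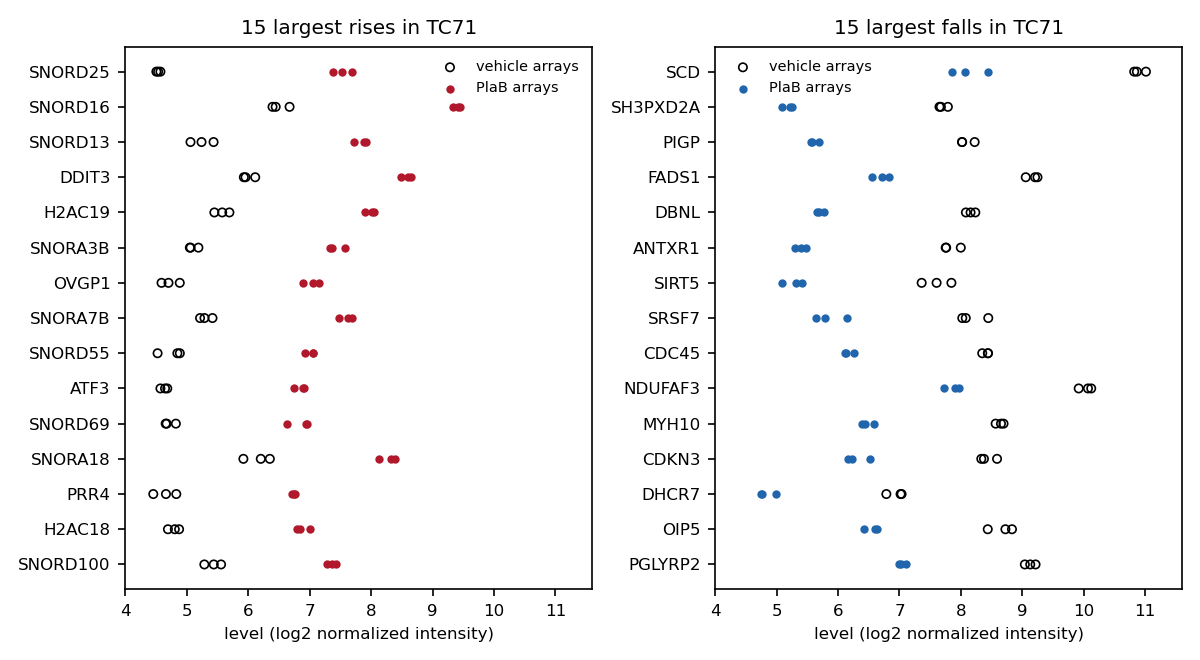
Level (log2 normalized intensity) of the 15 genes with the largest rise, left, and the 15 with the largest fall, right, in each TC71 array, with open circles for the 3 vehicle arrays and filled circles for the 3 PlaB arrays. In every gene shown the groups stand apart, as the choice of genes required, by 7.95-fold for SNORD25 and 6.85-fold for SCD.

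As a class, 73 of the 103 tested snoRNA genes were called up and 1 was called down, against 22.9% and 25.2% of all tested genes. The median snoRNA difference was 0.63, and it was 0.54 for the mean of SKNMC, TC32 and RDES. The snoRNA called down was SNORD48, a box C/D snoRNA of chromosome 6 (-0.59 ± 0.13, adjusted p = 0.0003). Among 11 tested small nuclear RNA genes 10 were called up, including RNU6-1 for the U6 RNA of the catalytic spliceosome (1.55) and RNU1-1 for the U1 RNA that pairs with the 5' splice site (0.90). RN7SK, the scaffold that holds the elongation factor P-TEFb inactive, was called up (1.55), as was RNU4ATAC, a part of the minor spliceosome (1.43). SNAR-A1, a small RNA encoded in many copies, was the exception with -0.93. Its copies cannot be told apart by symbol. RNA18SN5, the 18S ribosomal RNA, read 6.25, 5.86 and 6.37 with vehicle and 7.80, 7.48 and 7.73 with PlaB, a difference of 1.51 ± 0.23 (adjusted p = 3e-06). RPPH1, the RNA of the tRNA-processing enzyme RNase P, was called up as well (0.92). Long noncoding RNA genes were split evenly, with 32 called up and 32 called down of 179.

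Most snoRNAs are released from introns of a host gene. The snoRNA differences were therefore set beside those of the genes that hold them. For 46 snoRNAs called up, the RefSeq annotation (GRCh38.p14) placed the snoRNA within exactly 1 protein-coding or long noncoding gene, and that gene was tested. These hosts numbered 34. A snoRNA that lay within a further such gene, tested or not, was left out, and strands were not compared. Of these 34 host genes 12 were called up, 5 were called down and 17 were not called. The median difference was 0.78 over the snoRNAs and 0.08 over their hosts, and 37 of the 46 snoRNAs had a larger difference than the host. These snoRNAs were taken for being called up, which favours a larger value than the host. Over all 62 tested snoRNAs with a host found by the same rule, called or not, the medians were 0.63 and 0.09, and 45 had a larger difference than the host. RPL4, the ribosomal protein gene that holds SNORD16, was at 11.39, 11.13 and 11.15 with vehicle and at 11.33, 11.51 and 11.41 with PlaB. Its groups overlapped, and its difference of 0.20 ± 0.11 was not called (adjusted p = 0.17). The hosts RPL27A and RPS12, both ribosomal protein genes, had differences of 0.04 each, neither called, against 2.33 for SNORA3B and 1.93 for SNORD100. RPL12 fell by 0.33 while SNORA65, which it holds, rose by 1.69. In contrast, the noncoding host SNHG1 rose from 9.40, 9.40 and 9.52 to 11.25, 11.32 and 11.48 (1.91 ± 0.10, adjusted p = 6e-15). SNHG1 holds SNORD25, and also SNORD22, SNORD30 and SNORD31, whose differences (0.49, 0.73 and 0.89) were smaller than that of the host.

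**Figure D3:**
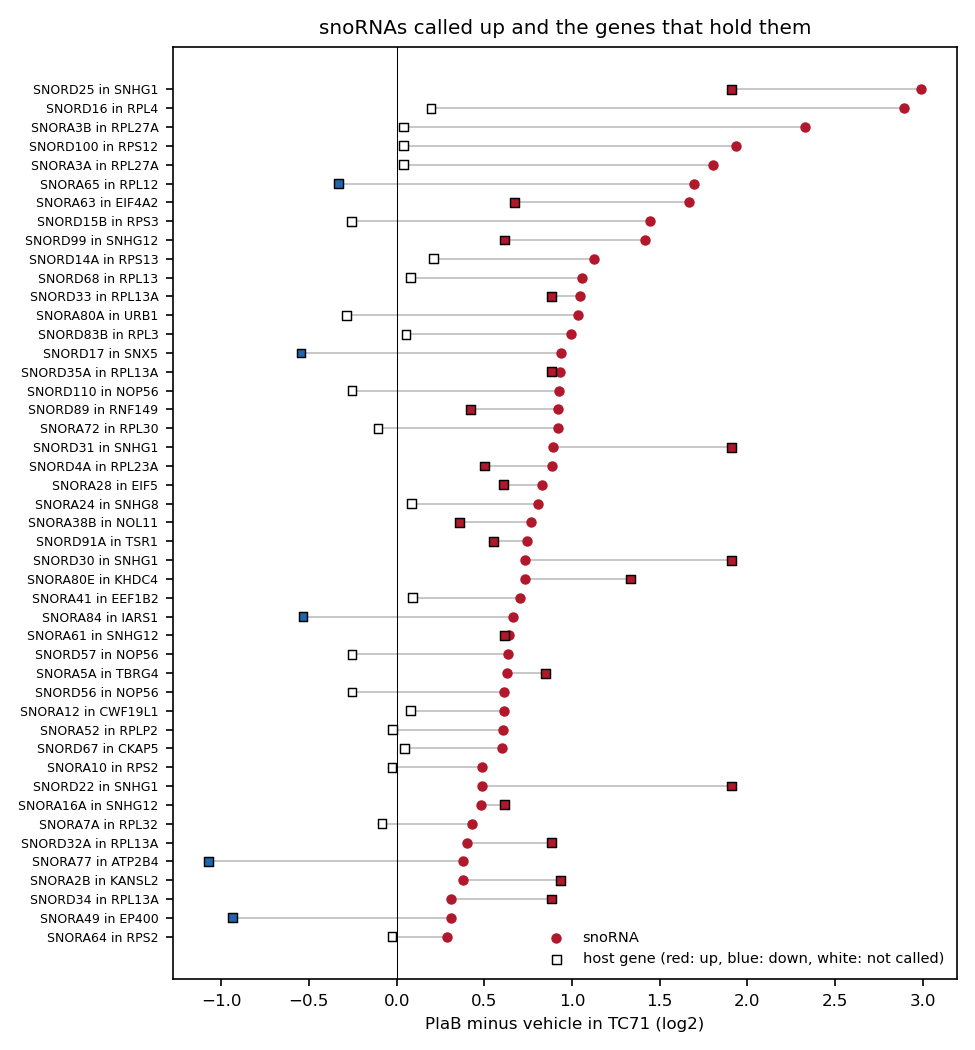
Difference between PlaB and vehicle in TC71 (log2) for the 46 snoRNAs called up (red circles) and for the tested gene that holds each one (squares, red when called up, blue when called down, white when not called). In 37 of the 46 pairs the circle lies to the right of the square, and hosts range from ATP2B4 at -1.07 to SNHG1 at 1.91.

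Of the listed noncoding snoRNA host genes, 13 of 17 passed the filter, and 9 were called up and 1 down, with a median of 0.90. SNHG7 (1.59), ZFAS1 (1.21), SNHG6 (1.02) and SNHG15 (0.97) followed SNHG1. SNHG5 was called down on its brightest probe (-0.45) and up on another probe (2.20). MicroRNA genes were rarely called, with 4 of 23 up and 0 down. Among these was MIR25, which lies in MCM7, a gene for a subunit of the replicative helicase. MIR25 read 4.34, 4.27 and 4.25 with vehicle, not detected on any of these arrays, and 5.24, 5.42 and 5.12 with PlaB, detected on all of them. Its rise was at least 1.85-fold, counted in each vehicle array from the dimmest detected signal or its own signal, whichever was higher. The vehicle side was background only, so no p-value is given with this bound. MCM7 read 9.77, 9.64 and 9.79 with vehicle and 8.99, 8.84 and 8.93 with PlaB. The host thus fell (-0.81 ± 0.10, limma adjusted p = 1.9e-07) where the reading of the MIR25 probe rose. The mature strand is shown because its gene lies in this falling host. It is printed 5' to 3' from RefSeq, minus strand of chr7:100093571-100093592 in GRCh38.p14, with the seed (bases 2 to 8) in capitals. The array probe does not separate the mature strand from the hairpin. Whether it read either of them or a longer RNA that holds them was not tested.
hsa-miR-25-3p: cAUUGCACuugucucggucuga

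Among genes of the SF3b target complex and its neighbours, more were called up than down. Of 31 listed SF3a, SF3b and U2-associated genes 27 passed the filter, of which 13 were called up and 2 down, and the median was 0.21. SF3B1, the largest SF3b subunit and part of the PlaB binding pocket, was at 8.97, 9.17 and 9.22 with vehicle and at 10.08, 10.05 and 9.88 with PlaB. All PlaB arrays were higher, by 0.88 ± 0.11 (adjusted p = 2.1e-07), and a second SF3B1 probe rose by 1.18. SF3B4, which contacts RNA upstream of the branch point, rose by 1.08, and CCDC12, a spliceosome component, rose by 1.15. The SF3b subunit genes SF3B3 (-0.17, limma adjusted p = 0.35) and PHF5A (0.21, adjusted p = 0.1) were not called. PHF5A was called up without background correction, with the larger offset of 50 and when arrays were centred on commonly detected probes. The members called down were DDX46, the helicase that remodels the U2 snRNP (-0.96), and RBM17, a splicing factor that binds it (-0.82).

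SR proteins and hnRNPs, which bind exons and introns and steer splice site choice, went both ways. Of 40 listed genes 36 passed the filter, with 13 called up and 15 called down and a median of 0.07. Under median centring 8 were called up and 15 down, and the median was -0.17. SRSF7 was among the 15 largest falls of all genes, from 8.45, 8.08 and 8.02 to 5.79, 5.65 and 6.14 (-2.32 ± 0.15, adjusted p = 3.2e-13). TIA1 (-1.43), HNRNPA0 (-1.30) and SRSF3 (-1.21) also fell. CLK3, a kinase of SR proteins, rose by 0.97, and RBM39 (0.92), SRSF10 (0.86) and SRSF1 (0.82) rose too. HNRNPH1, a binder of G-rich RNA, fell by 0.42 on its brightest probe (adjusted p = 0.0019) and was not called on another (0.13). In the genes for mRNA export, exon junction complex and RNA decay, 9 of 32 tested were called up and 11 down, the latter 7 without vehicle replicate 1 or without PlaB replicate 1. Those called up included SMG5 (0.99), CASC3 (0.92), UPF1 (0.86) and SMG8 (0.81) of the exon junction and nonsense-mediated decay machinery. Those called down included the export factor gene THOC6 (-1.63) and 5 exosome genes from EXOSC7 (-1.16) to EXOSC8 (-0.46).

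The stress-induced transcription factors DDIT3 and ATF3 rose. DDIT3, which encodes CHOP, was at 5.96, 6.11 and 5.93 with vehicle and at 8.65, 8.48 and 8.59 with PlaB, a difference of 2.58 ± 0.10 (adjusted p = 1.2e-17) or 5.97-fold. ATF3 was at 4.68, 4.57 and 4.65 with vehicle and at 6.88, 6.91 and 6.75 with PlaB, a difference of 2.22 ± 0.12 (adjusted p = 3.4e-15) or 4.64-fold. In both genes the PlaB arrays lay far above the vehicle arrays. Of 33 listed genes of the ATF4 and CHOP arm of the integrated stress response 29 passed the filter, with 14 called up, 5 called down and a median of 0.25, and under median centring 9 were called up and 6 down. PPP1R15A, which helps to dephosphorylate eIF2-alpha, rose by 1.47, the amino acid transporter subunit gene SLC3A2 by 1.29, MTHFD2 of mitochondrial folate metabolism by 0.74 and ATF4 itself by 0.73. ATF5 (-1.15), CBS of transsulfuration (-0.98) and PHGDH of serine synthesis (-0.74) fell. The chaperones of the endoplasmic reticulum had 5 members called up and 9 down among 23 tested of 27 listed. The number called up was 3 under median centring and without PlaB replicate 2. The secreted factor MANF (-1.16), CRELD2 (-1.08) and HSPA5, the chaperone BiP (-0.87), fell, while DERL2 rose on its brightest probe (1.15) and was not called on the other (-0.23). Cytosolic heat shock chaperones had 4 called up, among them the co-chaperone BAG3 (0.83), and 6 called down of 21 tested. The number called down was 3 without vehicle replicate 1 and 2 when arrays were centred on commonly detected probes. Cytosolic aminoacyl-tRNA synthetase genes had 4 called up and 7 called down of 18 tested, and 1 called up under median centring.

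Immediate-early genes, which growth factors and stress switch on within minutes, rose in 13 of 23 tested members of 32 listed, and 2 fell, with a median of 0.33. JUN, a subunit of AP-1, was at 6.63, 6.47 and 6.46 with vehicle and at 8.13, 7.68 and 8.07 with PlaB (1.44 ± 0.13, adjusted p = 4.3e-10). EGR1, a zinc finger transcription factor, was at 4.59, 4.42 and 4.71 with vehicle and at 5.72, 5.70 and 5.57 with PlaB (1.09 ± 0.13, adjusted p = 3.6e-08). Neither gene had overlapping groups. FOS and FOSB, the partners of JUN, were detected on 0 of 3 vehicle arrays and 3 of 3 PlaB arrays, with rises of at least 1.66-fold and at least 1.75-fold. The members called down were JUND (-0.47) and MYC.

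p53 target genes, which respond to DNA damage and other stress, were called up in 12 of 21 tested members of 29 listed and called down in 3, with a median of 0.38. Under median centring 5 were called up and 4 down, with a median of 0.17, and 8 were called up without PlaB replicate 1. GADD45A, a stress-induced growth arrest gene, rose by 1.20 and AEN, an apoptosis-enhancing nuclease, by 0.86. CDKN1A, the p21 inhibitor of cyclin-dependent kinases, was at 5.65, 5.48 and 5.64 with vehicle and at 6.06, 6.06 and 5.98 with PlaB. Its arrays did not overlap and its rise of 0.44 ± 0.12 was called (adjusted p = 0.0034), but not under median centring (adjusted p = 0.26). TP53I3 (-1.39 on its brightest probe, with another not called at -0.20) and PHLDA3 (-0.91) fell. BAX, which permeabilises mitochondria in apoptosis, fell on its brightest probe (-0.82) and was not called on a second probe (0.25). In the BCL2 family 5 were called up and 5 down of 17 tested, with 3 up under median centring, without vehicle replicate 3 and without PlaB replicate 2. BCL2L11, which encodes the pro-apoptotic BIM, rose from 4.55, 4.49 and 4.38 to 5.24, 5.37 and 5.04 (0.74 ± 0.13, adjusted p = 2.8e-05), and HRK rose by 0.61. BNIP3, of mitophagy, fell by 1.46 and BCL2L2, an anti-apoptotic member, fell by 1.03. The anti-apoptotic genes MCL1 (-0.17, adjusted p = 0.44) and BCL2L1 (0.18, adjusted p = 0.15) were not called.

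DNA replication genes were largely lower. Of 45 listed genes 41 passed the filter, and 29 of them were called down and 2 up, with a median of -0.58. CDC45, which activates the replicative helicase, was at 8.44, 8.44 and 8.35 with vehicle and at 6.26, 6.13 and 6.11 with PlaB (-2.25 ± 0.11, adjusted p = 1.1e-15), a 4.74-fold fall. RRM2, the regulated subunit of ribonucleotide reductase, was at 7.11, 7.20 and 7.22 with vehicle and at 5.14, 5.05 and 5.26 with PlaB (-2.03 ± 0.13, adjusted p = 1.5e-13). Both sets of arrays were apart by far more than their spread. PRIM1 of primase (-1.57), GINS2 of the helicase complex (-1.43), the chromatin assembly factor gene CHAF1B (-1.42), and TK1 and TYMS of thymidine nucleotide supply (-1.38 each) fell as well. All 6 helicase subunit genes MCM2 to MCM7 fell, from -0.81 for MCM7 to -0.43 for MCM2. The sliding clamp gene PCNA was not called (-0.11), and ORC1 (0.97) and CDT1 (0.59), which license origins, rose.

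Because these genes fell together, their promoters were searched for TTTNGCGC, a core of the E2F binding motif, on both strands and with overlapping matches counted. The window searched ran from 250 bases before to 50 bases after the RefSeq start site. The letters stood in 10 of the 25 promoters found for the members called down (40%) and in 13 of the 35 found for the tested members (37.1%). They stood in 3.14% of the 8736 promoters found for all tested genes and in 1.83% of all 27305 promoters in the table. Only the 250 bases before the start are printed, for 4 members that fell and for CDT1, which rose. They are given 5' to 3' from RefSeq (GRCh38.p14), to show where the letters lie in a gene of either direction. Capitals mark the motif on either strand, and in MCM6 each capital run holds overlapping matches on both strands. The stretches are MCM7 at chr7:100101398-100101647 on the minus strand, MCM6 at chr2:135876444-135876693 on the minus strand, POLA1 at chrX:24693668-24693917 on the plus strand, POLA2 at chr11:65261712-65261961 on the plus strand and CDT1 at chr16:88803539-88803788 on the plus strand.
MCM7: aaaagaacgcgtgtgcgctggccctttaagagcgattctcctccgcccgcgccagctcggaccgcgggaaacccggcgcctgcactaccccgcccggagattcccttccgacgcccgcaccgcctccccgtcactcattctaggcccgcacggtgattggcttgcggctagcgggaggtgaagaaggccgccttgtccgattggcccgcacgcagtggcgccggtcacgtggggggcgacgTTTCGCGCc
MCM6: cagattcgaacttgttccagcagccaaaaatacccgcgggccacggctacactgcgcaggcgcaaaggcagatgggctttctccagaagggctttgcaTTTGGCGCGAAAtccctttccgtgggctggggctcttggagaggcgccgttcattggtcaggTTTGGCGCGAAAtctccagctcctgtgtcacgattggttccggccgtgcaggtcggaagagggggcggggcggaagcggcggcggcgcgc
POLA1: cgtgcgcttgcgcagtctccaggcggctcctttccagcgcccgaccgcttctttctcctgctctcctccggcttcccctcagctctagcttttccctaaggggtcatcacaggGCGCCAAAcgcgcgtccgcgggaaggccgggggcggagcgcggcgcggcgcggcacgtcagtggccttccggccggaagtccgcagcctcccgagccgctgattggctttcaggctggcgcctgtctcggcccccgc
POLA2: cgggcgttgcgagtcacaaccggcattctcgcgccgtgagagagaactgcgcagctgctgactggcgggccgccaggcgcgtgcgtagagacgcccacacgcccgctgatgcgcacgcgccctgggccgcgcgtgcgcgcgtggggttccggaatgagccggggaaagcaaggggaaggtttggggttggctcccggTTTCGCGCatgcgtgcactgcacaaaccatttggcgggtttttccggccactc
CDT1: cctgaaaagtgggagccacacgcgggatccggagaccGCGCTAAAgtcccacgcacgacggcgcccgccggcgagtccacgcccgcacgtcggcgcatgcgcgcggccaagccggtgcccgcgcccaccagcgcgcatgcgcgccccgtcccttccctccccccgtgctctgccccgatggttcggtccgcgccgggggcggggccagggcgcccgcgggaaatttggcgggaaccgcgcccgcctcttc

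The differences that go with these promoters were -0.81 for MCM7, -0.58 for MCM6, -0.84 for POLA1 and -0.79 for POLA2, the catalytic and accessory subunits of polymerase alpha, and 0.59 for CDT1. A match is a description of letters and says nothing of what binds there. For the ATF4 and CHOP arm, TGATGNAAN, a core of the CHOP and ATF4 composite element, stood in 3 of 12 promoters of members called up (25%), in 6 of 24 of the tested members (25%) and in 1.64% of those of all tested genes. For the cholesterol genes a core of the sterol response element was searched in the same way, and stood in 0 of 13 promoters of members called down and in 1 of 21 of the tested members.

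Of 40 tested G2 and mitosis genes 17 were called up and 9 down, with a median of 0.04. Under median centring the counts were 10 up and 11 down and the median was -0.03. CDC25C, the phosphatase that activates CDK1, was called up on its brightest probe (0.98) and down on another (-0.89). NEK2, a centrosome kinase (0.96), BIRC5, which encodes survivin (0.81), and PTTG1, which encodes securin (0.77), rose. CDKN3, a phosphatase of cyclin-dependent kinases, fell from 8.38, 8.59 and 8.33 to 6.23, 6.16 and 6.52 (-2.13 ± 0.12, adjusted p = 3.3e-14). The spindle motor gene KIF11 (-1.34) and TOP2A (-1.06), a topoisomerase gene, also fell. OIP5, a factor for centromere deposition of CENP-A, fell by 2.11. Among cyclins, CDKs and their inhibitors at the G1 to S transition, 2 were called up and 7 down of 21 tested, with E2F7 (-1.11), CCND1 (-0.99) and SKP2 (-0.97) the largest falls, the last on its brightest probe only.

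Replication-dependent histone genes passed the filter in 26 of 59 listed cases, and 13 of these were called up and 2 down, with a median of 0.18. H2AC19 was at 5.45, 5.69 and 5.58 with vehicle and at 8.01, 8.04 and 7.90 with PlaB (2.41 ± 0.14, adjusted p = 1.7e-14). H2AC18 was at most 4.87 in any vehicle array and at least 6.80 in any PlaB array (2.09 ± 0.15, adjusted p = 1.8e-12). The groups were far apart in both, and the genes are near-identical copies, so which of them gave the signal is uncertain. H2BC5 (1.04), H2AC20 (0.99) and H2BC12 (0.95) rose as well. H4C3 went the other way, from 12.33, 12.38 and 12.47 to 11.10, 10.79 and 10.68 (-1.54 ± 0.13, adjusted p = 6.2e-11).

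Lipid synthesis genes held the largest fall of all. SCD, the stearoyl-CoA desaturase that makes monounsaturated fatty acids, was at 10.87, 10.82 and 11.01 with vehicle and at 8.07, 7.86 and 8.44 with PlaB (-2.78 ± 0.12, adjusted p = 3.7e-17), a 6.85-fold fall. FADS1, a desaturase of polyunsaturated fatty acids, was at 9.25, 9.06 and 9.21 with vehicle and at 6.71, 6.82 and 6.55 with PlaB (-2.47 ± 0.13, adjusted p = 3.4e-15). Each PlaB array was lower than each vehicle array in both genes, as the choice of the 15 largest falls required. Of 24 listed fatty acid synthesis and desaturation genes 19 passed the filter, with 10 called down, 1 called up and a median of -0.36. ACACB and ACACA of acetyl-CoA carboxylation (-1.93 and -0.99), FADS2 (-1.79), FASN, the fatty acid synthase (-1.62), and ACLY, which makes cytosolic acetyl-CoA (-1.51), fell. GPAM, the mitochondrial glycerol-phosphate acyltransferase, was the member called up (0.78). In cholesterol synthesis and uptake 23 of 32 listed genes passed the filter, with 15 called down, 2 called up and a median of -0.76. DHCR7, the last enzyme of the Kandutsch-Russell branch, fell by 2.12, HMGCS1 by 1.42, ACAT2 by 1.41, the sterol sensor partner INSIG1 by 1.35 and SREBF1, which encodes the SREBP-1 transcription factor, by 1.34. SREBF2, which encodes SREBP-2, was not called (0.10), and HSD17B7 (0.48) and NPC2 (0.34) rose.

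**Figure D4:**
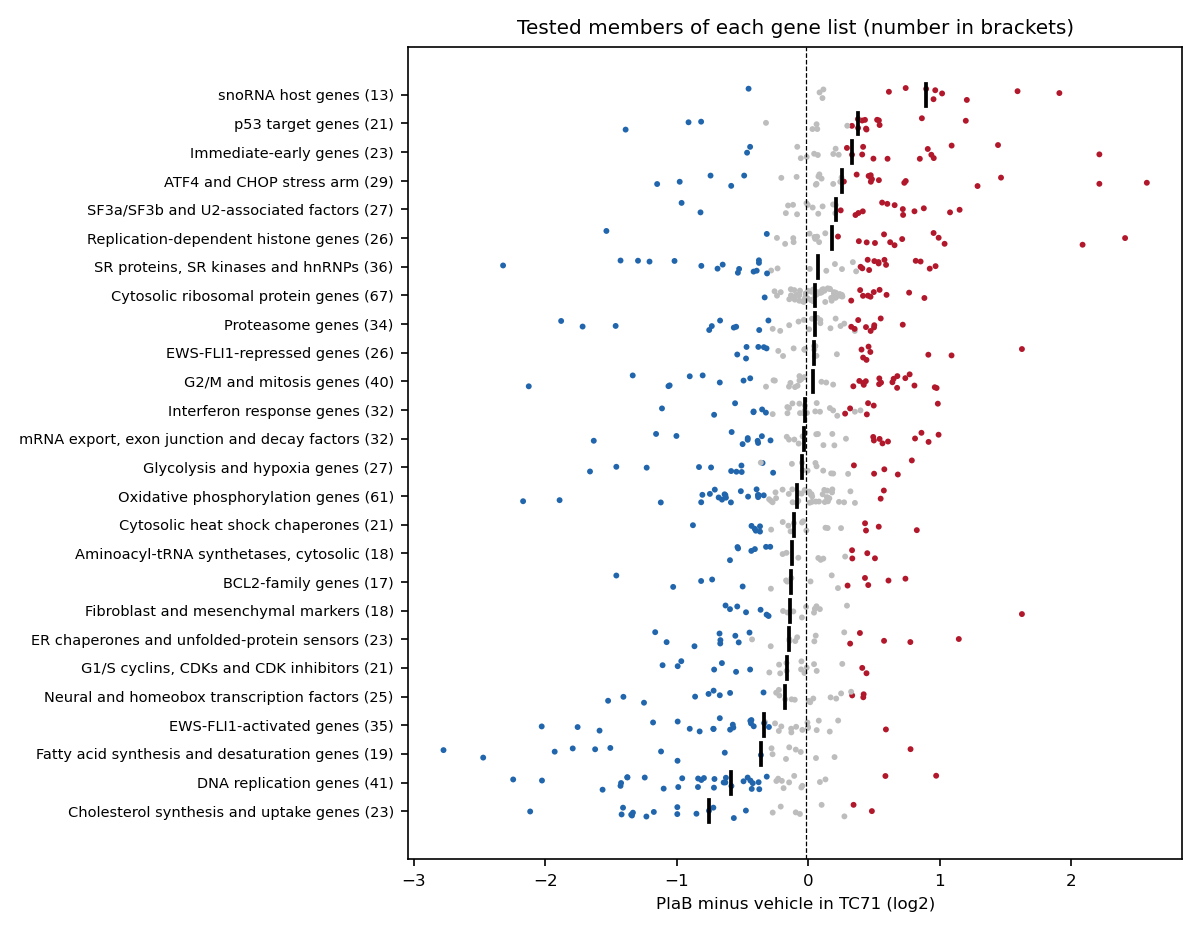
Difference between PlaB and vehicle in TC71 (log2) for the tested members of each gene list with at least 10 tested members, 1 point per gene, red when called up, blue when called down, grey when not called. Black bars are list medians, from -0.76 for cholesterol genes to 0.90 for snoRNA hosts, and the dashed line is the median of all tested genes at -0.02.

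The remaining housekeeping groups showed smaller or mixed differences. Oxidative phosphorylation genes were called down in 21 and up in 2 of 61 tested, with a median of -0.09. When arrays were centred on commonly detected probes 10 were called up and 15 down, and the median was 0.05. The assembly factor genes NDUFAF3 of complex I (-2.17) and UQCC2 of complex III (-1.89) had the largest falls, and ATP5PO of the ATP synthase followed (-1.12). Proteasome genes were called up in 9 and down in 10 of 34 tested, the former between 3 under median centring and 14 when centred on commonly detected probes, and 5 without vehicle replicate 2. The 3 largest falls were in genes for assembly or regulatory factors, PAAF1 (-1.88), PSMG4 (-1.72) and PSMG1 (-1.47). Cytosolic ribosomal protein genes were mostly not called (56 of 67), with 10 up (6 under median centring, 26 when centred on commonly detected probes), led by RPL13A (0.88) and RPS23 (0.77), and 1 down, RPL12. Glycolysis and hypoxia genes were called down in 11 and up in 5 of 27 tested, from PFKP, a phosphofructokinase gene (-1.66), to EGLN1, an oxygen-sensing prolyl hydroxylase gene (0.79), with 3 up under median centring. Interferon response genes were called up in 6, with IRF9 at 0.99, and down in 7 of 32 tested, with HERC5 at -1.11. The number called up was 2 under median centring and 10 when centred on commonly detected probes, and the number called down was 4 without vehicle replicate 2 or PlaB replicate 3.

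Targets of the EWS-FLI1 fusion were divided by their known direction. Of 41 listed genes that the fusion activates 35 passed the filter, with 19 called down, 1 called up and a median of -0.34. The kinase gene VRK1 fell from 7.26, 7.28 and 7.17 to 5.17, 5.44 and 5.02 (-2.03 ± 0.15, adjusted p = 2.8e-12). PRKCB, a protein kinase C gene, fell from 10.04, 9.88 and 10.12 to 8.49, 8.12 and 8.16 (-1.76 ± 0.11, adjusted p = 1.9e-13). In both, every PlaB array was lower. CCND1, which encodes cyclin D1, fell from 11.09, 11.18 and 11.11 to 10.25, 10.05 and 10.10 (-0.99 ± 0.10, adjusted p = 4.7e-09), and NKX2-2, a homeobox factor used as an Ewing sarcoma marker, fell by 0.59 (adjusted p = 0.00011). STEAP2 (-1.59) and PPP1R1A (-1.18) fell too, ID2 rose (0.59), and EZH2 of the Polycomb complex was not called on its brightest probe (-0.13) and fell on another (-0.48). Of 30 listed genes that the fusion represses 26 passed the filter, with 8 called up, 6 called down and a median of 0.05 that turned to -0.03 without PlaB replicate 1. Under median centring 4 were called up, and 3 were called down without vehicle replicate 3 or PlaB replicate 1. TAGLN, an actin-binding protein gene, rose from 4.71, 4.96 and 4.67 to 6.34, 6.45 and 6.43 (1.63 ± 0.13, adjusted p = 9.6e-12), CCN1 rose by 1.09 and FOXO3 by 0.91, while ACTA2 (-0.54) and VIM (-0.47) fell. EWSR1 itself was not called on its brightest probe (0.14, adjusted p = 0.37), whose sign turned under median centring, fell on a second (-0.42) and rose on the last (0.40). FLI1 had no probe past the filter, so the fusion partner cannot be read here. MYC fell by 0.44 ± 0.13 (adjusted p = 0.0046), but was not called without PlaB replicate 2 (adjusted p = 0.071) or when arrays were centred on commonly detected probes (adjusted p = 0.077). Another MYC probe was not called (-0.17). Neural and homeobox transcription factors were called down in 9, led by PAX7 (-1.52) and POU3F1 (-1.41), and up in 3 of 25 tested. Another PAX7 probe was not called (-0.13).

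Of 11 Ewing sarcoma markers, 7 were detected on all 6 arrays (BCL11B, CCND1, CD99, EWSR1, NKX2-2, PRKCB and STEAP1), and FLI1 and NPY1R were detected on none. Their summed linear intensity was 5640 to 5696 with vehicle and 3463 to 3677 with PlaB, and 0 were called up and 3 down of 9 tested. Bright genes weigh most in this sum, such as CCND1 (mean level 11.1 with vehicle and 10.1 with PlaB) and PRKCB (10.0 and 8.3). All sums given here also count undetected markers, at background level. CD99, the surface antigen used in diagnosis, was not called (0.15). In an array of bulk RNA, fewer cells of a type and less RNA per cell cannot be told apart. Of 20 fibroblast and mesenchymal markers 9 were detected on all arrays and PDGFRA on none, with sums of 923 to 954 and 950 to 981, and 1 was called up and 7 down of 18 tested (4 down without vehicle replicate 3). Of 14 epithelial markers KRT18 and MUC1 were detected on all arrays and 7 on none, among them CDH1 and KRT19. The sums over this list were 289 to 297 and 281 to 293, and 0 were called up and 1 down of 4 tested. Of the blood-cell markers CD14, CD68 and CD79A were detected on all arrays, and CD3D and PTPRC on none. The sums over this list were 313 to 330 and 340 to 359, and 2 were called up of 4 tested, CD14 (0.69) and CD68 (0.56). Of 10 endothelial markers 7 were detected on no array, among them PECAM1 and VWF, with sums of 191 to 193 and 208 to 214, and 1 was called up and 1 down of 2 tested. The part of these markers in the other results was not tested.

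Some genes were detected in all 3 arrays of a treatment and in none of the other, so the fold is a bound. Of the 10882 tested genes, 63 had a signal with PlaB only and 218 with vehicle only. At a detection p of 0.01 the counts were 93 and 248. PlaB arrays had fewer detected probes in general, a mean of 16427 against 17755 with vehicle. The part of this in the counts was not tested. With PlaB only, SNORA68, an H/ACA snoRNA, rose at least 3.20-fold, from 4.28, 4.15 and 4.27 to 6.13, 5.94 and 6.08, and the endothelial adhesion molecule gene ESAM rose at least 2.28-fold. GGT1, a gamma-glutamyltransferase gene with close relatives (at least 2.11-fold), AURKC, a meiotic Aurora kinase gene (at least 1.74-fold), and VEGFD, a lymphatic growth factor gene (at least 1.73-fold), were others. With vehicle only, MAMSTR, a co-activator of MEF2 factors, fell at least 2.05-fold, from 5.22, 5.51 and 5.61 to 4.23, 4.18 and 4.32. LYRM7, an assembly factor of complex III (at least 1.95-fold lower), STAU2, an RNA-binding protein gene (at least 1.78-fold lower), and HES7, a segmentation clock repressor (at least 1.72-fold lower), followed.

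Probes of the same gene could move apart. Of 2507 genes with more than 1 tested probe, 82 had at least 1 probe called up and 1 called down. In OLFM1, which encodes an olfactomedin of neural tissue, a probe rose by 1.65 (5.14 to 6.78 in mean level) while another fell by 1.501 (7.82 to 6.32). OCIAD2 had 2.43 and -0.39, and RPS29, a ribosomal protein gene, had 2.46 and -0.30. Among the 15 largest falls, ANTXR1, which encodes an anthrax toxin receptor, fell by 2.45 on its brightest probe and by 0.40 and 0.33 on a pair of others, with 0.29 and no call on the last. PIGP of GPI anchor synthesis fell on both probes (-2.48 and -1.21), as did DBNL, an actin-binding adaptor (-2.45 and -1.62). DHCR7 also fell on both (-2.12 and -2.10), and SIRT5, a mitochondrial desuccinylase gene, fell on all 3 (-2.33, -1.72 and -0.46). MYH10, which encodes a nonmuscle myosin heavy chain, fell by 2.16.

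Gene length in the annotation went with a lower share of rises at the long end. When the tested genes were divided into 5 equal groups by the span of the gene, 17.6% of the longest group (spans of 85522 bases or more) were called up, against 22.5% to 25.8% in the other groups. The share called down was 25.9% in the longest group and 24.1% to 26.9% in the others. Median differences ran from -0.05 in the longest group to 0.00 in the middle one.

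The response of TC71 was then tested against the mean response of SKNMC, TC32 and RDES in the same limma fit. Of the tested probes 2445 (13.9%) differed, 1210 (6.89%) higher in TC71 and 1235 (7.03%) lower. Of 10882 tested genes 1712 (15.7%) differed, with 806 (7.41%) higher in TC71 and 906 (8.33%) lower. Of the 2487 genes called up in TC71, 1090 were called up in all 3 other lines, 577 in 2 of them, 477 in 1 and 343 in none, and 174 were called down in at least 1. Of the 2742 genes called down, the numbers were 1099, 707, 511 and 425, and 156 were called up in at least 1 other line.

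DDIT3 had a larger rise in TC71 (2.58) than in SKNMC (1.63), TC32 (0.96) or RDES (0.90), a difference from their mean of 1.41 (adjusted p = 3e-09). H2AC19 rose by 2.41 against 0.35, 0.64 and 0.41 in the same order (difference 1.94, adjusted p = 1.9e-09), and H2AC20 by 0.99 against 0.08, -0.43 and -0.58. Histone genes were higher than in the other lines in 9 and lower in 1 of 26 tested. ARID5B, a chromatin regulator gene, rose in TC71 from 5.23, 5.32 and 5.82 to 6.55, 6.47 and 6.51 (1.05) against -0.59, -0.12 and -0.28 (difference 1.38, adjusted p = 1e-07). MXD4, which encodes a MAX partner, rose by 1.15 in TC71 against -1.40 in SKNMC, 0.56 in TC32 and 0.53 in RDES. APCDD1, an inhibitor of Wnt signalling, fell less in TC71 (-0.70) than in the others (-2.68, -1.58 and -1.80). MT1X, a metallothionein gene, and TNFAIP6, a hyaluronan-binding protein gene, were not called in TC71 (0.28 and 0.21), with differences from the other lines of 1.28 and 1.23. JUN (difference 1.10), EGR1 (1.20) and ID2 (1.12) were also higher in TC71.

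On the lower side, SH3PXD2A, which encodes the invadopodia scaffold TKS5, was at 7.67, 7.65 and 7.79 with vehicle and at 5.25, 5.08 and 5.22 with PlaB in TC71. Its fall of 2.52 stood against -1.53 in SKNMC, 0.15 in TC32 and -0.50 in RDES (difference -1.89, adjusted p = 5.9e-11). SCD fell by 2.78 against -1.87, -1.40 and -1.33 (difference -1.24, adjusted p = 1.9e-07). AMER2, a regulator of Wnt signalling, fell by 2.07 against -1.10, -0.87 and -0.23. METTL1, a tRNA methyltransferase gene, fell by 1.63 against -0.78, 0.17 and -0.29, and SIRPA, the receptor for CD47, fell by 1.41 against -0.21, 0.30 and -0.32. MBD3L5, a member of a multi-copy family whose copies may share signal, fell by 1.07 against 0.00, 0.98 and 0.72. FKBP11, a secretory pathway isomerase gene, fell by 0.47 where the others had 0.80, 0.66 and 0.77. LTB4R, a leukotriene receptor gene, was not called in TC71 (-0.25) and had 1.94, 0.91 and 0.89 in the others, and it was called under median centring.

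**Figure D5:**
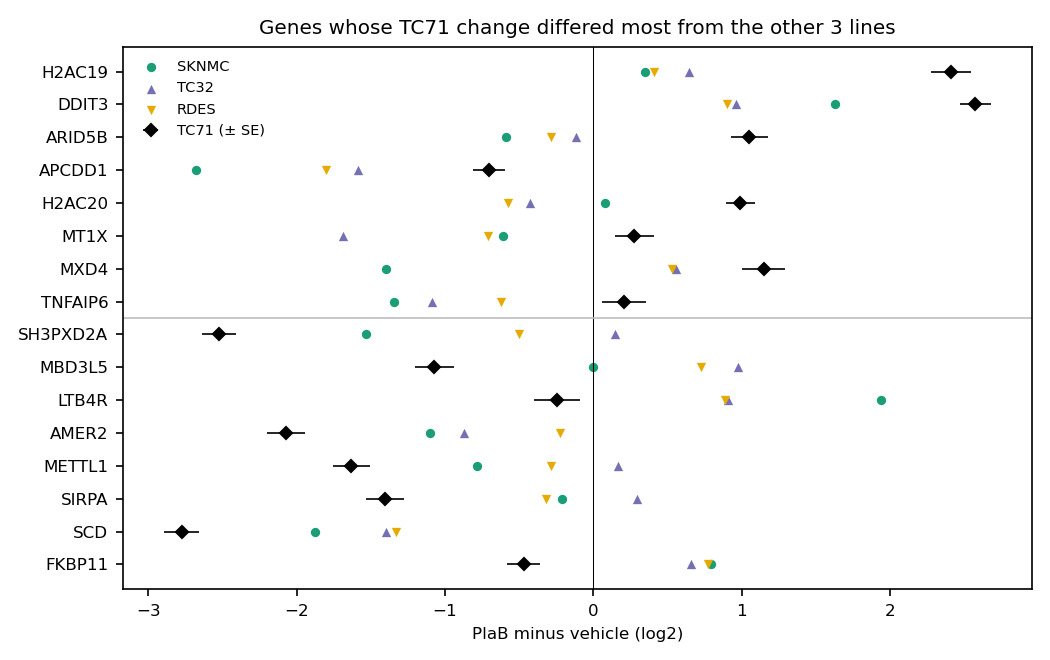
Difference between PlaB and vehicle (log2) in each line for the 8 genes with the most positive (above the grey line) and the 8 with the most negative difference between TC71 and the mean of the other lines, among genes detected in every group of all 4 lines, with TC71 as black diamonds (± SE) and the other lines as coloured symbols. The TC71 values run from 2.58 for DDIT3 to -2.78 for SCD, and each lies outside the range of the other 3 lines on the side shown.

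By group, the counts stand against 7.41% higher and 8.33% lower over all tested genes, and compare responses rather than directions of change. Of 41 DNA replication genes 13 were lower in TC71 than in the other lines and 0 were higher, led by CHAF1B (-0.77), FEN1 (-0.72) and MCM3 (-0.68). The median difference of the list was -0.58 in TC71 and -0.34 in the mean of the other lines. Among fatty acid genes 6 of 19 were lower and 0 higher, and among cytosolic heat shock chaperones 6 of 21 were lower and 0 higher, led by HSPA1B (-0.96) and HSPH1 (-0.89). At the G1 to S transition 8 of 21 were lower, among them CCND1 (-0.64) and MYC (-0.50), and 3 were higher. The MYC value in SKNMC (-0.41) was close to that in TC71 (-0.44), with 0.52 in TC32 and 0.05 in RDES. CDKN1A rose in TC71 (0.44) and in SKNMC (1.00) and had -0.83 in TC32 and -0.75 in RDES, with a difference from their mean of 0.64. BCL2L11 differed by 0.70 and TP53I3 by -1.03. Of the EWS-FLI1-activated genes 6 of 35 were higher and 7 lower, and of the repressed genes 7 of 26 were higher and 1 lower. Fibroblast and mesenchymal markers were higher in 8, which includes COL5A1 (0.74) and COL5A2 (0.71), and lower in 2 of 18. Their median change was -0.14 in TC71 and -0.42 in the mean of the other lines, so as a list they fell less in TC71. Their part in the repressed-gene count, with which they share members, was not tested. Oxidative phosphorylation genes were higher in 5 and lower in 0 of 61, with a median change of -0.09 in TC71 and -0.25 in the mean of the other lines. The snoRNA genes were higher in 13 and lower in 8 of 103.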

How the data were processed

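Expression was measured on Illumina beadchips from total RNA in 4 Ewing sarcoma lines, with 3 arrays for each line and treatment, 24 in all. The deposited table holds, per the file headers, a probe intensity for each array on a linear scale, not normalized, and beside it a detection p-value. Software listed by the submitters' processing notes was lumi, GenomeStudio and R 3.0.2, with no steps assigned. A genome build is not given in the sources used here, and the series matrix was not used here. All value columns of the deposited intensity table were mapped to a sample. Intensity columns were mapped by their names, and each detection p-value column by its place to the right of an intensity column.

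The neqc method of limma 3.58.1 (R 4.3.3) was applied: the detection p-values served to estimate and subtract background, 16 was added as an offset, arrays were brought to common quantiles and log2 was taken. To be tested, a probe had to reach a detection p under 0.05 on every array of some group among the 8, and 17557 of 47323 probes did. Of these, 13978 had 1 gene symbol, 1 had several and 3578 had none in the platform annotation. A group-means model was fitted to all 24 arrays (16 residual and 13.4 prior degrees of freedom). The contrasts were PlaB minus vehicle in TC71 and that difference minus the mean of the other 3 lines, two-sided, adjusted by Benjamini-Hochberg over all tested probes. The fit was tested on simulated data.

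The genes and the 30 gene lists were chosen with earlier results of these data known, so counts over lists are descriptions without a test. Named were 17 preset genes, of which FLI1 and MDM2 were too dim to be tested, the 15 largest rises and falls among called genes detected on all 6 arrays without overlap, and the 8 largest differences from the other lines in each direction among genes called in that contrast and detected in every group of all 4 lines. Up to 4 called members of each list with the largest change and up to 10 genes found in only 1 group were also named. Other list members, probes, small RNAs with their hosts and members with a motif were picked as examples after their values were seen. RNA classes, gene spans, miRNA sequences and promoters came from RefSeq tables (GRCh38.p14). The TC71 samples were not fitted as pairs by replicate number. Deviations from group means of same-numbered arrays correlated at -0.01, 0.02 and -0.04, so no shared effect of the number was seen. Such correlations cannot show whether same-numbered samples were handled together. Alternatives covered background correction, offset, normalization, filter, arrays in the fit, array weights, a replicate block and each TC71 array left out. There is no read depth on an array, and the number of arrays limits the precision.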

Additional observations from a re-analysis of the deposited data

Results flagged for a closer look

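The test of TC71 against the mean response of the other 3 lines singled out 1712 genes. Some of the named ones among them are given here with the log2 difference TC71 minus the mean of SKNMC, TC32 and RDES. Each passed limma's adjusted p of 0.05 in that contrast, which does not show a difference from each single line.

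Genes with a more positive value in TC71 included DDIT3 (1.41), ATF3 (0.73), CDKN1A (0.64), ARID5B (1.38), MXD4 (1.25), MT1X (1.28), TNFAIP6 (1.23) and APCDD1 (1.32). Histone genes were H2AC19 (1.94), H2AC18 (1.60) and H2AC20 (1.30). Small nucleolar RNA genes were SNORD25 (1.02), SNORD16 (0.66), SNORD69 (0.49), SNORA18 (0.52) and SNORA3B (0.41), and PRR4 had 0.50. The rise in SKNMC was 2.39 for ATF3 (2.22 in TC71), 2.17 for SNORD69 (2.12 in TC71) and 2.12 for SNORA18 (2.12 in TC71), and that of CDKN1A was 1.00 (0.44 in TC71).

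Genes with a more negative value in TC71 included those of the cell cycle and survival, CCND1 (-0.64), MYC (-0.50), CDC45 (-0.58), CDKN3 (-0.53), OIP5 (-0.59) and BCL2L1 (-0.37). Lipid genes were SCD (-1.24) and DHCR7 (-0.70). The others were SH3PXD2A (-1.89), MBD3L5 (-1.64), PGLYRP2 (-1.50), LTB4R (-1.49), AMER2 (-1.34), METTL1 (-1.33), SIRPA (-1.33), FKBP11 (-1.21), SIRT5 (-0.95) and PIGP (-0.73). PGLYRP2 encodes a peptidoglycan amidase.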

How the results depend on the processing

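Over 19 alternative settings, 2 counts of called probes moved by more than 1.5 times, both under median centring. The count of probes called up was then 2125 and the count lower in TC71 than in the other lines 799. Median centring also gave 29.4% of calls up, against 49.1% in the values reported. Centring on commonly detected probes gave 57.8% and shifted the median of all probes by 0.12. The only named gene to change sign among those with a test was EWSR1 under median centring (-0.023, adjusted p = 0.93), and it was called in neither setting. With the replicate block, 7608 probes were called in TC71, and this block cannot be read as a pairing. Leaving out 1 TC71 array at a time left 6839 to 6995 probes called, and the difference in detected probes per array ran from -1750 to -838, the latter without vehicle replicate 1. Calls of named genes changed for CDKN1A, CD68, NARS1, RPL5, EZH2 and LTB4R under median centring, for EZH2 under cyclic loess also, for MYC and HSF1 without a PlaB array, for RPL5 without vehicle replicate 1, and for PHF5A, MT1X, CLDN7 and MYC under other background, scaling or fit settings. The causes were not tested. List medians near 0 changed sign with the scaling, as for interferon response genes (0.17 with centring on detected probes), heat shock chaperones (0.05), glycolysis genes (0.08), proteasome genes (-0.09 under median centring) and export and decay genes (0.04 without vehicle replicate 2). Ribosomal protein genes called up ranged from 6 to 26. A BCL2-family median of -0.13 was 0.02 without vehicle replicate 3. Probes near background give compressed differences, and 2-fold changes of dim probes are understated by the offset.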
